A study of Homo sapiens with 6 samples.

Results

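The 37 genes of the human mitochondrial genome each had a row in a table of read counts for the human line MDA-MB-231, which was grown from a breast cancer without estrogen, progesterone and HER2 receptors. They were the rows whose symbol starts with MT-, and they were 37 of 28675 genes in the table: 13 mRNA genes, 2 rRNA genes and 22 tRNA genes. Polyadenylated RNA was sequenced from 2 groups of these cells, 3 libraries from cells overexpressing the RNA-binding protein LARP6 and 3 libraries from cells with a no-load control. The study set out to find RNAs bound and regulated by LARP6. All 6 libraries came from the same line, and the promoter, vector and clonal state of the overexpressing cells are not stated in the labels. Whether the 3 libraries of a group stem from different cultures is not stated either, and every p-value therefore refers to the spread among these libraries, part or all of which may be technical.

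Mitochondrial DNA is a small circle that is transcribed on both strands by the polymerase POLRMT with its factors TFAM and TFB2M into long precursor RNAs. Enzymes that recognise the tRNAs cut the precursors at the tRNAs, which in this way separate the rRNAs and mRNAs from each other, and most of the mRNAs then receive a short poly(A) tail. The mRNAs encode subunits of complexes I, III, IV and V of the respiratory chain and ATP synthase, whose other subunits come from the nucleus, and the rRNAs are part of the ribosomes that translate them inside the organelle.

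The order of genes on the circle and the ends of the mRNAs bear on how reads are assigned, so a few sequences are given from GENCODE v29 transcripts on GRCh38. The rRNA genes MT-RNR1 (648 to 1601 on the plus strand of the mitochondrial chromosome) and MT-RNR2 (1671 to 3229) lie directly between 3 tRNA genes, with no base in between. Of these tRNAs, MT-TF lies before MT-RNR1, MT-TV separates the rRNAs from each other, and MT-TL1 separates MT-RNR2 from MT-ND1.
MT-TF: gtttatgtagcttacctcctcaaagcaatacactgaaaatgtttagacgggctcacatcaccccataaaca
MT-TV: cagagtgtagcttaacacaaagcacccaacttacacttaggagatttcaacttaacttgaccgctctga
MT-TL1: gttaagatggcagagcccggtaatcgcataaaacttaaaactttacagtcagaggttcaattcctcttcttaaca

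Of the 13 mRNAs, 6 end in 1 or 2 bases past the last whole codon, because their stop codon is completed by the poly(A) tail, so the tail is needed for a whole stop codon. Their last 20 bases are shown with the leftover bases in capitals.
MT-ND1: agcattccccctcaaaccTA
MT-ND2: ttttatactaataatcttaT
MT-CO3: catctattgatgagggtctT
MT-ND3: aggattagactgaaccgaaT
MT-ND4: cattaccgggttttcctctT
MT-CYB: caaaatactcaaatgggccT
The other 7 mRNAs carry a whole stop codon in the annotation, where AGA (MT-CO1) and AGG (MT-ND6) were counted as stop codons. The stop codon of MT-ATP6 shares its last base (9207) with the start of MT-CO3. To which mRNA that base belongs was not tested. The stop codon is in capitals here for 2 of the 7.
MT-CO2: ggcccgtatttaccctaTAG
MT-ND5: ccctactcctaatcacaTAA

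Neighbouring mRNA genes overlap in 3 places, by 46 bases (MT-ATP8 and MT-ATP6), by 7 bases (MT-ND4L and MT-ND4) and by 1 base (MT-ATP6 and MT-CO3), and reads of 150 bases there can belong to either gene. The end of MT-ATP8 is shown with the 46 bases it shares with the start of MT-ATP6 in capitals, and the end of MT-ND4L with the 7 bases it shares with MT-ND4.
MT-ATP8: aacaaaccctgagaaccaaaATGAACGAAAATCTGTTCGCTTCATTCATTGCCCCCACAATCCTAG
MT-ND4L: cataacctaaacctactccaATGCTAA
MT-ND6 is the only mRNA gene on the minus strand, and its first 60 bases show how its composition differs from that of a plus-strand neighbour, MT-CYB.
MT-ND6: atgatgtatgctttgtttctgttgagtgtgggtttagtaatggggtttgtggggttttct
MT-CYB: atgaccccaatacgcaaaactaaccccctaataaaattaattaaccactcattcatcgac
Guanine made up 35.6% of the bases of MT-ND6 and 12.0% of those of MT-CYB, and 6.28% to 16.2% over the 12 plus-strand mRNAs.

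Library totals were 29409101 to 33387050 counts. LARP6 itself had 1995, 2198 and 2131 CPM (read counts normalised to library depth, with TMM scaling) in the LARP6 libraries, against 44.2, 40.7 and 43.3 CPM in the control libraries, so each library matched its label. The vimentin gene VIM, a marker of this mesenchymal line, averaged 3345 and 3151 CPM in LARP6 and control libraries, the epithelial cadherin gene CDH1 averaged 7.29 and 7.92 CPM, and the estrogen receptor gene ESR1 was close to 0 in both. At a Benjamini-Hochberg adjusted p below 0.05 in edgeR's quasi-likelihood test, 979 of 16226 tested genes were called, 395 higher and 584 lower in LARP6 libraries.

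A slightly smaller share of the reads came from mitochondrial mRNAs in the LARP6 libraries, and the rRNA share was similar. The mRNAs took 6.17%, 6.38% and 6.28% of counts in the LARP6 libraries, against 6.55%, 6.42% and 6.93% in the control libraries. All 3 LARP6 values lay below all 3 control values, but LARP6 library 2 and control library 2 were 6.38% and 6.42%, and control library 3 stood above the rest. The rRNAs took 0.995% ± 0.0242 in LARP6 libraries and 0.992% ± 0.0212 in control libraries (SD, n = 3 each), with overlapping groups. The 22 tRNA genes together took 0.00458% ± 0.000274 in LARP6 libraries and 0.00470% ± 0.000280 in control libraries. All 37 genes took 7.17%, 7.40% and 7.26% of counts in the LARP6 libraries, against 7.57%, 7.41% and 7.91% in the control libraries. The difference in this total was -0.352 percentage points, and it was -0.210 without control library 3 and -0.464 without control library 2. An exact 95% binomial interval for LARP6 library 1 ran from 7.16% to 7.18%, which covers counting error only and is far narrower than the spread between libraries. Bulk libraries do not tell apart fewer cells holding an RNA from less of it per cell.

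**Figure D1:**
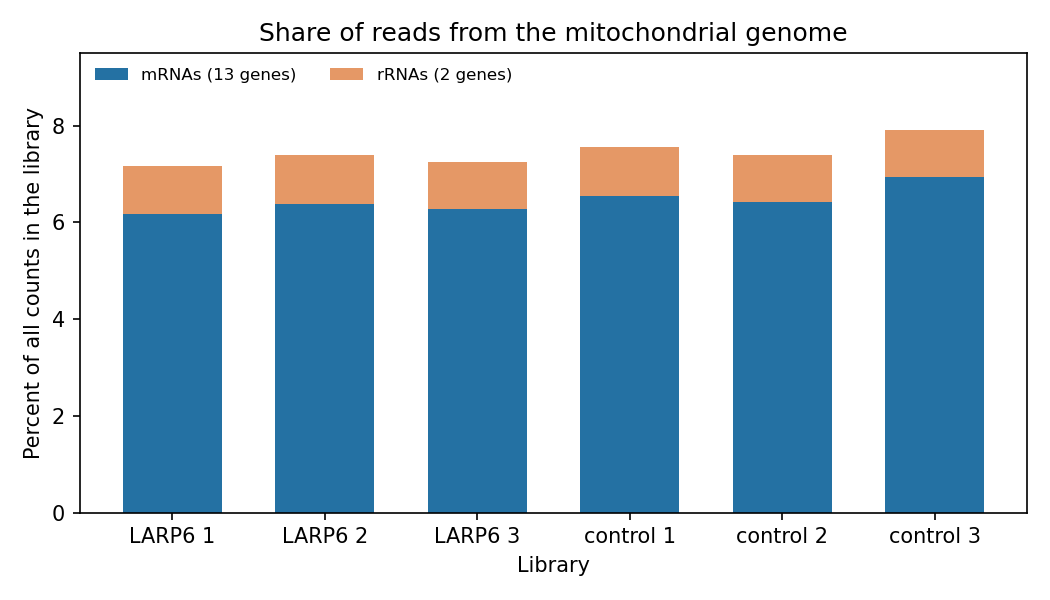
Percent of all counts in each library that fell on mitochondrial mRNA genes (blue, 13 genes) and rRNA genes (orange, 2 genes), stacked, for 3 LARP6 and 3 control libraries; tRNA genes are too few to see. The blue bars reach 6.17% to 6.38% in LARP6 libraries and 6.42% to 6.93% in control libraries, with control library 3 the highest.

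Levels per length differed far more between mitochondrial genes than between groups. In the authors' FPKM values, MT-CO2, a catalytic subunit of cytochrome c oxidase (complex IV), was highest, with 11120 ± 250.1 FPKM in LARP6 libraries and 11849 ± 425 FPKM in control libraries (SD, n = 3 each). MT-CO3, the third large subunit of that enzyme, averaged 10559 and 10873 FPKM in LARP6 and control libraries, and it was below MT-CO2 within every library although the ranges over the 6 libraries overlapped. MT-CO1, which holds the active site, averaged 7819 FPKM in LARP6 and 8144 FPKM in control libraries, below both others in every library. The ATP synthase subunits MT-ATP6 and MT-ATP8 followed, with 6442 and 6359 FPKM in LARP6 libraries and 6826 and 6582 FPKM in control libraries. Their ranges over libraries overlapped, but MT-ATP8 was slightly below MT-ATP6 within every library, at 0.989, 0.981 and 0.992 of it in LARP6 libraries and 0.946, 0.961 and 0.984 of it in control libraries. The complex I mRNAs spread over the widest range. MT-ND4 averaged 4992 FPKM in LARP6 and 5348 FPKM in control libraries, whereas MT-ND5 averaged 929 FPKM in LARP6 and 981 FPKM in control libraries, although these genes lie close together on the same strand. MT-ND6, on the minus strand, was the lowest mRNA, at 368 ± 24.0 FPKM in LARP6 libraries and 363 ± 30.2 FPKM in control libraries. MT-CO2 therefore stood 30.3 times above MT-ND6 on the FPKM scale in LARP6 libraries and 32.7 times in control libraries. The rRNAs were not the highest members in these libraries: MT-RNR2 averaged 4348 FPKM in LARP6 and 4428 FPKM in control libraries, and MT-RNR1 averaged 2103 and 1948 FPKM. Selection for poly(A) acts on this order, so a level here is that of RNA captured with the mRNA kit.

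**Figure D2:**
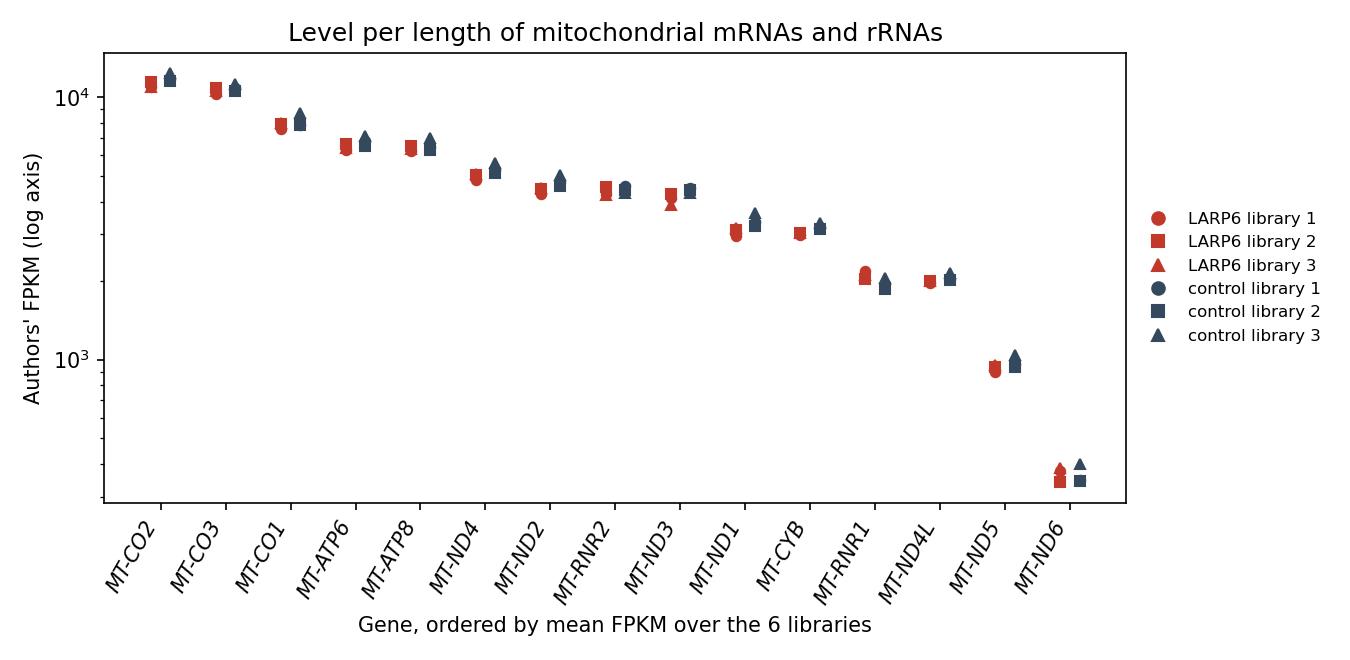
The authors' FPKM of the 15 mitochondrial mRNAs and rRNAs on a log axis, ordered by the mean over 6 libraries, with LARP6 libraries in red left of control libraries in dark blue and a marker shape per library number. MT-CO2 and MT-CO3 overlap at the top, between 10303 and 12314, and MT-ND6 is lowest, between 341 and 398.

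The mRNAs were counted by gene, although MT-ATP8 and MT-ATP6 are known to share an mRNA, as do MT-ND4L and MT-ND4. Of the 13 mitochondrial mRNAs, 8 fell by 6.86% to 10.7% in the LARP6 libraries, and 5 were not called. In the same test 3.6% of all genes were lower and 2.43% were higher. All 13 log2 fold changes were negative, from -0.16 to -0.0065, with a median of -0.11, while the median over all tested genes was 0.0038. The libraries of the groups did not overlap for 9 mRNAs, all lower in LARP6, as was the case for 11.7% of all tested genes, with another 10.6% that did not overlap and were higher. Over all members, 33 of 37 passed the low-count filter, of which 8 were lower, 1 was higher and 24 were not called, with a median log2 fold change of -0.055. The genes that did not pass were 4 tRNA genes with few reads.

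**Figure D3:**
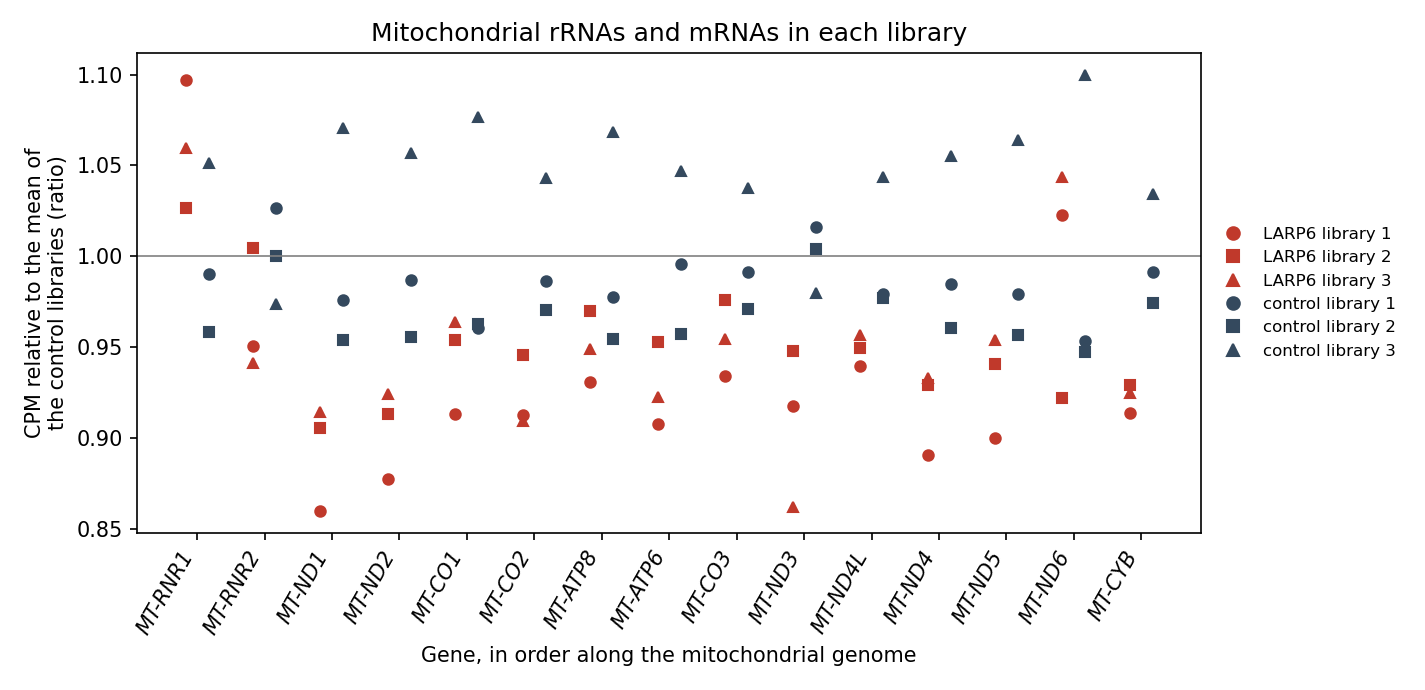
CPM of each mitochondrial rRNA and mRNA in each library divided by the mean of the 3 control libraries for that gene, in map order, with LARP6 libraries in red left of control libraries in dark blue. For 12 of the 13 mRNAs control library 3 is the highest of the 6 libraries and MT-ND3 is the exception; MT-RNR1 is the gene whose LARP6 libraries all lie above the control mean.

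Complex I is the NADH dehydrogenase that feeds electrons into the respiratory chain, and 5 of its 7 mitochondrial mRNAs fell. MT-ND1, a membrane subunit at the quinone site (3307 to 4262), had 3192, 3361 and 3394 CPM in LARP6 libraries, against 3623, 3541 and 3974 CPM in control libraries. The groups did not overlap, and the fold change was the largest among the mRNAs, at -0.16 ± 0.037 on the log2 scale (SE; adjusted p = 0.0179). MT-ND2, a proton-pumping membrane subunit (4470 to 5511), had 5013, 5217 and 5280 CPM in LARP6 libraries, against 5640, 5460 and 6038 CPM in control libraries, again with no overlap (log2 fold change -0.14 ± 0.027, adjusted p = 0.000135). MT-ND4, another pumping subunit (10760 to 12137), had 7506, 7827 and 7859 CPM in LARP6 libraries, against 8296, 8091 and 8891 CPM in control libraries (-0.12 ± 0.026, adjusted p = 0.000673), and the groups were apart here too.

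MT-ND3, a small membrane subunit of complex I (10059 to 10404), had 1603, 1656 and 1506 CPM in LARP6 libraries, against 1775, 1754 and 1712 CPM in control libraries. Its log2 fold change of -0.14 ± 0.026 had the smallest adjusted p among the members, 7.52e-05, and unlike the other mRNAs it was lowest within each group in library 3. MT-ND5, a further pumping subunit (12337 to 14148), had 1828, 1911 and 1938 CPM in LARP6 libraries, against 1990, 1944 and 2162 CPM in control libraries, where LARP6 library 3 and control library 2 nearly met (-0.10 ± 0.030, adjusted p = 0.0309). MT-ND4L, a short membrane subunit (10470 to 10766), was not called although its groups did not overlap, with 655, 662 and 667 CPM in LARP6 libraries and 683, 681 and 727 CPM in control libraries (-0.076 ± 0.026, adjusted p = 0.0561). MT-ND4L is known to be read from the same mRNA as MT-ND4, so their calls are not those of separate RNAs. MT-ND6 (14149 to 14673 on the minus strand) showed no separation at all, with 223, 201 and 228 CPM in LARP6 libraries and 208, 207 and 240 CPM in control libraries (-0.0065 ± 0.086, adjusted p = 0.980). Its standard error was the widest among the mRNAs. The strand setting of the read counter is not known here, so reads of MT-ND6 and of the opposite strand of the same place cannot be told apart.

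MT-CYB encodes cytochrome b, the mitochondrial subunit of complex III (14747 to 15887). It had 3838, 3903 and 3883 CPM in LARP6 libraries, against 4163, 4093 and 4345 CPM in control libraries. The LARP6 libraries lay close together and below every control library (log2 fold change -0.12 ± 0.025, adjusted p = 0.000536).

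Of the complex IV mRNAs, 1 of 3 fell. MT-CO2 (7586 to 8269) had 8459, 8764 and 8424 CPM in LARP6 libraries, against 9142, 8991 and 9667 CPM in control libraries, with no overlap (-0.12 ± 0.025, adjusted p = 0.000735). MT-CO1 (5904 to 7445) had 13110, 13699 and 13841 CPM in LARP6 libraries, against 13796, 13827 and 15456 CPM in control libraries. These groups overlapped, and control library 3 alone stood far above the others (-0.084 ± 0.039, adjusted p = 0.272). MT-CO3 (9207 to 9990) also overlapped, with 9101, 9509 and 9303 CPM in LARP6 libraries and 9664, 9465 and 10111 CPM in control libraries (-0.067 ± 0.025, adjusted p = 0.0932).

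Of the ATP synthase mRNAs, MT-ATP6, the proton channel subunit (8527 to 9207), fell, with 4824, 5064 and 4903 CPM in LARP6 libraries and 5294, 5088 and 5563 CPM in control libraries. The gap between the groups was narrow, between LARP6 library 2 and control library 2 (-0.11 ± 0.026, adjusted p = 0.00263). MT-ATP8, a small membrane subunit (8366 to 8572), was not called, with 1450, 1511 and 1478 CPM in LARP6 libraries and 1523, 1487 and 1664 CPM in control libraries (-0.075 ± 0.029, adjusted p = 0.129). Both genes are known to be read from a shared mRNA, so these are values over different stretches of it.

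The rRNAs of the mitochondrial ribosome differed in the sign of their fold changes. MT-RNR1, the RNA of the small ribosomal subunit, had 2331, 2181 and 2251 CPM in LARP6 libraries, against 2104, 2037 and 2234 CPM in control libraries. It was the single member called higher (log2 fold change 0.085 ± 0.027, adjusted p = 0.0381), but its groups overlapped, since control library 3 lay above LARP6 library 2. The call was lost in 11 of 20 alternatives, among them without LARP6 library 1 (0.061, adjusted p = 0.305), LARP6 library 3 (0.087, adjusted p = 0.127), control library 1 (0.079, adjusted p = 0.112) and control library 2 (0.056, adjusted p = 0.365). MT-RNR2, the RNA of the large ribosomal subunit, had 7501, 7927 and 7428 CPM in LARP6 libraries, against 8099, 7891 and 7684 CPM in control libraries, with overlap (-0.051 ± 0.025, adjusted p = 0.249). Its value lay within the range of the mRNAs. It was called in 2 of 20 alternatives, lower with GC and length offsets (-0.064, adjusted p = 0.0348) and with the replicate block. No fit with a library left out called it.

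When libraries were scaled to the summed counts of the 13 mRNAs, so that members were compared with each other, 0 members were lower and MT-RNR1 was higher (log2 fold change 0.19 ± 0.039, edgeR adjusted p = 0.000165). In that fit 0.388% of all genes were lower and 10.5% higher, the median of all tested genes was 0.11, and 0 members were lower at an unadjusted p below 0.05 as well. Among the mRNAs, the largest negative value was that of MT-ND1, at -0.057 ± 0.038 (adjusted p = 0.313), and the largest positive value was that of MT-ND6, at 0.10 ± 0.048 (adjusted p = 0.145). MT-RNR2 had 0.052 ± 0.036 (adjusted p = 0.335). A p that misses the threshold does not show that these RNAs moved alike.

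**Figure D4:**
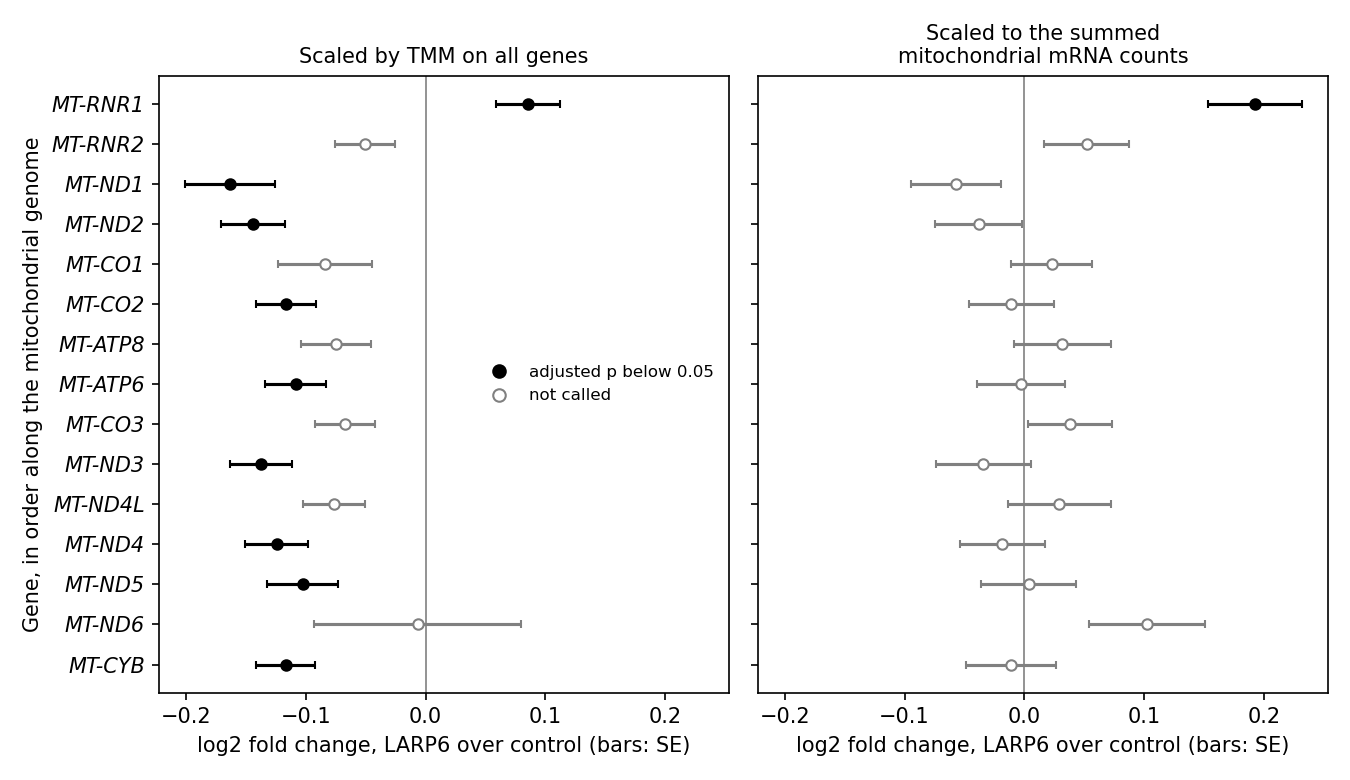
log2 fold change of LARP6 over control libraries (points) with its SE (bars) for each mitochondrial rRNA and mRNA in map order, with libraries scaled by TMM on all genes (left) and to the summed counts of mitochondrial mRNAs (right); filled points passed an adjusted p of 0.05. On the left 8 mRNAs are filled below 0 and MT-RNR1 above 0, and on the right MT-RNR1 alone is filled, at 0.19.

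The ratio of MT-RNR1 to MT-ND1 counts, genes that are separated by MT-RNR2 on the same strand, was 0.730, 0.649 and 0.663 in LARP6 libraries, against 0.581, 0.575 and 0.562 in control libraries. All LARP6 libraries lay above all control libraries in this ratio, which was chosen after its values were seen. The ratio of MT-RNR1 to MT-RNR2 overlapped between groups, at 0.311, 0.275 and 0.303 in LARP6 libraries and 0.260, 0.258 and 0.291 in control libraries. For the overlapping genes, the ratio of MT-ATP8 to MT-ATP6 on the FPKM scale was 0.987 ± 0.00525 in LARP6 libraries and 0.964 ± 0.0190 in control libraries (SD, n = 3 each), with overlap. That of MT-ND4L to MT-ND4 was 0.397 ± 0.00690 in LARP6 libraries and 0.384 ± 0.00583 in control libraries, without overlap. MT-ND4L thus had lower FPKM than MT-ND4 in both groups, although both are known to be read from 1 shared mRNA, as are MT-ATP8 and MT-ATP6. How the counter assigned reads that span both genes is not known, and the cause of this gap was not tested. MT-ND3 took 2.64%, 2.62% and 2.40% of mitochondrial mRNA counts in LARP6 libraries, against 2.70%, 2.71% and 2.43% in control libraries, so its share was lowest in library 3 of either group.

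Among the 6 mRNAs annotated without a whole stop codon, 5 were lower, MT-CO3 being the exception, with a median log2 fold change of -0.13. Among the 7 annotated with a whole stop codon, 3 were lower (MT-CO2, MT-ATP6 and MT-ND5), with a median of -0.084. MT-CO1 and MT-ND6 are in this set by AGA and AGG, whose use as stop codons was not tested. MT-ATP6 is in this set only by the base it shares with MT-CO3, and would join the other set without it. The ranges of the sets overlapped, at -0.16 to -0.067 and -0.12 to -0.0065. This split was made after the values had been seen and was not tested.

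The tRNAs are shorter than the library inserts and are not polyadenylated as mature RNAs, and they gave few reads. Reads counted on a tRNA gene may come from longer RNAs that span it, which was not tested. Counts ran from 1 to 483 per gene and library, and the tRNA genes are 59 to 75 bases long. Of 22 tRNA genes, 18 could be tested and edgeR called 0, with 2 lower and 0 higher at an unadjusted p below 0.05. By limma-voom 0 were called as well, and DESeq2 gave none of them an adjusted p. The most counted were MT-TS1, a serine tRNA, with 335, 289 and 340 counts in LARP6 libraries and 329, 341 and 483 counts in control libraries, and MT-TL1, a leucine tRNA, with 283, 245 and 277 counts in LARP6 libraries and 276, 263 and 314 counts in control libraries. Control library 3 was again the highest for both. The smallest p-values belonged to MT-TS1 (log2 fold change -0.24 ± 0.093, adjusted p = 0.108) and the cysteine tRNA MT-TC (-0.31 ± 0.14, adjusted p = 0.198), both on the minus strand. As for MT-ND6, reads of the minus-strand tRNA genes cannot be told apart from reads of the opposite strand. MT-TC had 132, 111 and 105 counts in LARP6 libraries and 145, 152 and 138 counts in control libraries, apart in counts but overlapping in CPM.

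The tRNAs MT-TF and MT-TV, which flank MT-RNR1, showed no separation between groups. MT-TF, the phenylalanine tRNA at the start of the transcript, had 131, 147 and 136 counts in LARP6 libraries and 118, 125 and 142 counts in control libraries (0.12 ± 0.14, adjusted p = 0.707). MT-TV, the valine tRNA between the rRNAs, had 30, 31 and 29 counts in LARP6 libraries and 32, 32 and 30 counts in control libraries (-0.051 ± 0.28, adjusted p = 0.948). Summed over the 8 minus-strand tRNA genes, the reads counted came to 25.5 ± 1.69 CPM in LARP6 libraries and 28.1 ± 2.40 CPM in control libraries. Over the 14 plus-strand genes they came to 19.8 ± 0.757 and 19.4 ± 0.782 CPM (SD, n = 3 each). Both sums overlapped between groups. The untested genes MT-TW, MT-TG, MT-TR and MT-TL2 had 1 to 9 counts in each library. At such counts a change of the size seen in the mRNAs was not detectable.

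**Figure D5:**
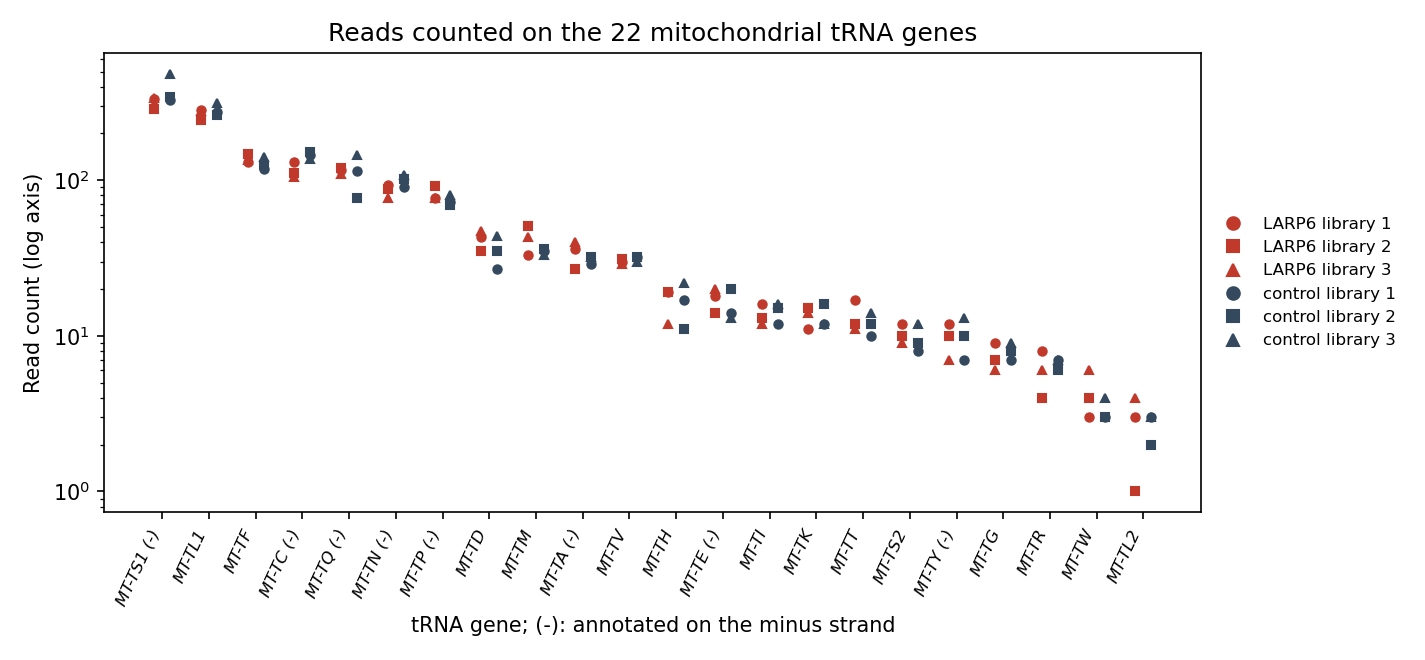
Reads counted on each of the 22 mitochondrial tRNA genes in each library, on a log axis, ordered by their sum, with LARP6 libraries in red left of control libraries in dark blue and minus-strand genes marked (-). Counts fall from 289 to 483 for MT-TS1 to 1 to 4 for MT-TL2, and the groups overlap for every tRNA gene that was tested except MT-TC.

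Copies of mitochondrial sequence in the nuclear genome can take reads that come from mitochondrial RNA. The table held 28 such rows, of which 7 could be tested, and MTATP6P1 alone was called. MTATP6P1 lies on chromosome 1 from 633696 to 634376 and matches MT-ATP6 at 671 of 681 bases (98.5%). It had 757, 780 and 753 CPM in LARP6 libraries, against 834, 819 and 877 CPM in control libraries (log2 fold change -0.14 ± 0.026, edgeR adjusted p = 1.70e-05), so it was lower as MT-ATP6 was. Its counts were 0.157, 0.154 and 0.154 of those of MT-ATP6 in LARP6 libraries, against 0.158, 0.161 and 0.158 in control libraries. The groups did not overlap in this ratio, nor in that of MTND2P28 to MT-ND2 counts, which ran the other way, at 0.0256, 0.0250 and 0.0250 in LARP6 libraries and 0.0229, 0.0238 and 0.0242 in control libraries. The ratio of MTCO1P12 to MT-CO1 counts overlapped between groups. MTND2P28 and MTCO1P12, which match MT-ND2 at 98.2% and MT-CO1 at 98.6%, were not called. They averaged 130.3 and 140.3 CPM in LARP6 libraries and 135.0 and 147.9 CPM in control libraries. How many of these reads came from mitochondrial RNA was not tested, and the values of MT-ATP6, MT-ND2 and MT-CO1 are uncertain to that extent.

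Among the nuclear genes that make and process mitochondrial RNA, 1 was called. Of 66 genes for transcription, replication, RNA processing, RNA stability, modification and translation in mitochondria, and their nuclear regulators, 64 could be tested, of which edgeR called 1 lower and 0 higher, where 3.6% of all genes were lower and 2.43% higher. At an unadjusted p below 0.05, 4 were lower and 5 higher, and DESeq2 and limma-voom each called 1 lower and 0 higher. Their median log2 fold change was 0.0036, close to that of all genes. The gene called was ESRRA, a nuclear receptor that acts on genes of oxidative metabolism, with 92.9 ± 2.45 CPM in LARP6 libraries and 101.9 ± 2.48 CPM in control libraries (SD, n = 3 each; log2 fold change -0.13 ± 0.036, adjusted p = 0.00995). Its call was lost without LARP6 library 2 (-0.11, adjusted p = 0.135) and without control library 3 (-0.11, adjusted p = 0.0876), and with GC and length offsets (-0.074, adjusted p = 0.250). The polymerase gene POLRMT (-0.083 ± 0.047, adjusted p = 0.338), the transcription factor gene TFAM (0.090 ± 0.044, adjusted p = 0.241) and the gene of the mRNA-stabilising protein LRPPRC (0.032 ± 0.034, adjusted p = 0.671) were not called. Neither were SLIRP, the partner of LRPPRC (0.0063 ± 0.038, adjusted p = 0.955), nor MTPAP, the mitochondrial poly(A) polymerase (0.12 ± 0.060, adjusted p = 0.279). TFB1M, the methyltransferase that modifies the RNA of MT-RNR1, averaged 10.5 CPM in LARP6 libraries and 9.27 CPM in control libraries (0.19 ± 0.096, adjusted p = 0.266).

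Some nuclear subunits of the same complexes were lower too. Of 72 genes for subunits of complexes I, III, IV and V, 71 could be tested, of which 6 fell, where 3.6% of all genes were lower, and edgeR, DESeq2 and limma-voom each called 0 higher, also at an unadjusted p below 0.05. Their median log2 fold change was -0.058, and 63 of 71 values were negative. The genes that fell were NDUFB11 (-0.15 ± 0.033, adjusted p = 0.000763) and NDUFS8 (-0.13 ± 0.031) of complex I, CYC1 (-0.10 ± 0.028) of complex III, and COX7B (-0.13 ± 0.033), COX8A (-0.12 ± 0.027) and COX6B1 (-0.086 ± 0.028, adjusted p = 0.0493) of complex IV. Of these 6, COX7B alone kept its call with GC and length offsets (-0.16), where CYC1 had -0.033 (adjusted p = 0.562), COX8A -0.022 (adjusted p = 0.722) and COX6B1 -0.0098 (adjusted p = 0.907), and NDUFB11 and NDUFS8 had -0.081 and -0.092. CYC1 lost its call without LARP6 library 1 or 2 or control library 1 or 3, and COX6B1 without LARP6 library 1 or 2 or control library 2 or 3. NDUFB11 and NDUFS8 lost theirs without LARP6 library 1 and COX7B without LARP6 library 3, whereas COX8A was called without each library in turn. In all, 2 of the 71 genes were lower without LARP6 library 1, where 1.71% of all genes were lower. Without LARP6 library 3, 10 of the 71 were lower, where 3.89% of all genes were lower.

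The mitochondrial mRNAs are short and among the most abundant RNAs. On the plus strand they are 207 to 1812 bases long and low in GC, at 39.6% to 47.7%. Among nuclear genes, short length and high abundance went with lower fold changes, and low GC went with higher ones. The length and GC classes held protein-coding genes with a mean of 5 CPM or more. Nuclear protein-coding genes with transcripts under 1000 bases had a median log2 fold change of -0.058, against 0.045 for those over 6000 bases. Those under 40% GC had a median of 0.061, those from 40% to 45% GC a median of 0.034 and those over 60% a median of -0.064. Among 81 nuclear protein-coding genes with a mean of 1000 CPM or more, LARP6 included, the median was -0.058 and 37.0% were lower, with a median SE of 0.025, like that of the mitochondrial mRNAs at 0.026. The part of abundance in the mitochondrial values was not tested. GC and length were entered as offsets in 1 fit, where MT-CO2, MT-ND3 and MT-CYB were lower among the mRNAs (2.51% of all genes were lower in that fit) and the median of the 13 mRNAs was -0.094. The other 5 lost their calls there with log2 fold changes of -0.14 for MT-ND1, -0.15 for MT-ND2, -0.13 for MT-ND4, -0.11 for MT-ND5 and -0.094 for MT-ATP6.

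Which mRNAs passed also depended on the tool. DESeq2 called 5 of the 13 lower (5.06% of its 8105 genes), and limma-voom 3 (3.45% of all genes), while the median over the 13 was -0.11 in both. The 3 were MT-ND3, MT-CYB and MT-ND4L, of which edgeR did not call MT-ND4L. By edgeR, MT-ND2, MT-CO2, MT-ND3, MT-ND4 and MT-CYB were called without each library in turn. Of these, MT-ND2, MT-CO2 and MT-ND4 were not called by limma-voom, nor was MT-ND4 by DESeq2. MT-ND1 was not called without LARP6 library 3 (-0.18, adjusted p = 0.0935). MT-ATP6 was not called without LARP6 library 1 (-0.093, adjusted p = 0.0560) or control library 3 (-0.071, adjusted p = 0.0763). MT-ND5 lost its call whichever LARP6 library was left out (-0.078, -0.11 and -0.12 without libraries 1, 2 and 3) and without control library 3 (-0.053, adjusted p = 0.271). Without control library 3, the library highest for 12 of 13 mRNAs, 6 mRNAs and 2.38% of all genes were lower. The median of the 13 mRNAs was -0.071 in that fit.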

How the data were processed

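Per the labels' protocols, DNase-treated RNA went into a strand-specific mRNA kit and was read from both ends for 150 bases. HISAT2, DESeq2 and GRCh38 appear in the submitters' processing notes with no version. The counter, its strand setting and its treatment of reads that match several places are not known. The authors deposited whole-number counts per gene and FPKM values, in which counts are divided by gene length and by library size. Groups and replicate numbers came from the titles.

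The deposited counts were compared by edgeR 4.0.16 under R 4.3.3 (filterByExpr, TMM, robust quasi-likelihood test, no covariate, Benjamini-Hochberg adjustment over 16226 genes, threshold 0.05). Each adjusted p in the text is from this test unless another is named. CPM were computed with TMM-scaled library sizes. The biological coefficient of variation from the common dispersion was 3.23%. Interval limits are exact binomial at 95% and cover counting error only, since PCR copies cannot be told from separate molecules here.

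The members and gene lists were chosen with earlier results of these data known. The naming rule took LARP6, every member, tested nuclear copies and up to 6 called genes per nuclear list with the smallest p. Other genes and all ratios were chosen after their values were seen. Alternatives were other scalings, filters and thresholds, DESeq2 1.42.0, limma-voom (limma 3.58.1), a replicate block, limma on log2 FPKM with a pseudocount of 1 or 0.1, GC and length offsets, and leaving out each library. The scripts were tested on simulated counts. Positions, lengths and sequences came from GENCODE v29, which held 97.0% of all gene identifiers.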

Additional observations from a re-analysis of the deposited data

How the results depend on the processing

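Members lower numbered 8 and mitochondrial mRNAs lower 8. Scaled to the mitochondrial mRNA total, which sets the mRNAs to no change on average, both were 0, with 1771 genes past the threshold over all genes, 8 expression factors higher and 0 lower, and 0 nuclear oxidative phosphorylation genes lower. In that fit MT-ND5 (0.0034), CYC1 (0.0038) and COX6B1 (0.018) turned to positive, uncalled log2 values. DESeq2 gave 5 members and 5 mRNAs lower and 574 genes, and limma-voom 3 and 3. Limma on log2 FPKM plus 1 or plus 0.1 gave 0 members and 0 mRNAs lower, 90 or 92 genes, and 0 expression factors and 0 nuclear subunits lower. GC and length offsets gave 4 members and 3 mRNAs lower, 603 genes, and 1 expression factor higher and 2 lower. An adjusted p below 0.01 left 443 genes. The 1 member higher, MT-RNR1, became 0 with upper-quartile scaling, DESeq2, limma-voom, both FPKM fits, the stricter threshold and the offsets. Library size only gave 2 expression factors higher and moved the median of all genes to 0.030. On summed FPKM the share of members differed by -0.707 percentage points, with 23.3% in LARP6 and 24.1% in control libraries. Same-numbered libraries had correlations of their deviations of 0.035, 0.0073 and 0.050. Differently numbered libraries of the 2 groups had -0.063 to 0.029. All were small, and the numbers were not taken as pairs in the main fit, although these values do not settle the question. The replicate block gave 12 members lower, 11 of them mRNAs (5.1% of all genes were lower), 1 expression factor higher and 2 lower, and 15 nuclear subunits lower. Leaving out each library gave 6 to 11 members lower, 0 to 1 higher, 6 to 10 mRNAs lower, 456 to 1040 genes (459 and 456 when LARP6 library 1 or 2 was left out, 650 when control library 2 was), 0 to 1 expression factors higher and 0 to 1 lower, and 2 to 10 nuclear subunits lower. The cause of these differences was not tested. Of 928 values of single named genes, 804 kept direction and call, 108 lost the call, 13 gained it and 3 reversed, and 40 uncalled values changed sign. RLE scaling, scaling on nuclear genes only and both other low-count filters kept all counts of members and mRNAs within 1.5 times. Depth limits the tRNAs, whose counts reached 483 at most.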
